A study of Homo sapiens with 6 samples.

Results

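The EGF-family ligand genes described here are AREG, EREG, BTC, EPGN, EGF, HBEGF, TGFA, NRG1 and NRG3, 9 of 20098 protein-coding genes. They were chosen by name as a gene family, and each was followed through the 100 Kb bins that overlap its gene body and 5 bins on either side, on the hg19 build. EPGN, EREG, AREG and BTC lie side by side on chromosome 4 and were treated as 1 cluster, which left 6 loci with 36 gene body bins and 98 bins in all of the 30376 in the genome. All 98 bins had a score in all 6 libraries.

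The data were tethered chromatin conformation capture (TCC, a form of Hi-C) libraries of T47D, an estrogen receptor-positive line established from human breast cancer. The parental line was kept without hormone for 72 h, then taken untreated (T0) or after 1, 4, 16 or 24 h with 100 nM 17β-estradiol, E2 (T1, T4, T16 and T24). The sixth library came from a tamoxifen-resistant T47D line (TamR), which the labels list as untreated and which the study's methods describe as kept in tamoxifen. The methods also give TamR cells another concentration of charcoal-stripped serum and name no 72 h starvation for them. Resistance, the presence of the drug and these culture conditions therefore cannot be told apart. Each condition had 1 library, so no difference below has a replicate check and none was tested; the range over the 5 parental libraries is given only as a yardstick. The files gave 1 score per bin, the first eigenvector of the contact map, multiplied by 1000 here: bins above 0 belong to compartment A, the active and open part of the genome, and bins below 0 to compartment B, the inactive part. The scores hold no expression and no read depth, so neither the level of any ligand nor the identity of the cells could be checked.

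EGF-family ligands are made as membrane-anchored precursors, are cut free by ADAM proteases, and activate the ErbB receptor tyrosine kinases, which drive growth of the mammary epithelium. AREG (amphiregulin), EGF, TGFA and EPGN (epigen) bind EGFR; BTC (betacellulin), EREG (epiregulin) and HBEGF bind both EGFR and ERBB4. The neuregulins bind ERBB3 and ERBB4, with NRG3 binding ERBB4. AREG is a known estrogen-induced gene of the mammary gland, and ErbB signalling has long been studied in resistance to tamoxifen.

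The 4 genes of the chromosome 4 cluster are the ligands whose compartment differed most between T0 and TamR, and the 250 bases before the annotated start of each are printed here so that the regulatory sequence at each start can be read beside its score. They come from RefSeq (GRCh38.p14) and were placed on hg19 by exact match: EPGN at chr4:75173937-75174186, EREG at chr4:75230612-75230861 and AREG at chr4:75310603-75310852 on the plus strand, and BTC at chr4:75719734-75719983 on the minus strand. Each is written 5′ to 3′ towards the start, and capitals mark a TATA box (TATAAA) or a cAMP response element (TGACGTCA).
EPGN: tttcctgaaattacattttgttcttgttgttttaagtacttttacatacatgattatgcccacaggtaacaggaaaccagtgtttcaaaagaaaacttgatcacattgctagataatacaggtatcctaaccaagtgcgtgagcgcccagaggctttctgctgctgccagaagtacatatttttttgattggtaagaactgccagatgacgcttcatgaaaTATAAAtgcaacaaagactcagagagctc
EREG: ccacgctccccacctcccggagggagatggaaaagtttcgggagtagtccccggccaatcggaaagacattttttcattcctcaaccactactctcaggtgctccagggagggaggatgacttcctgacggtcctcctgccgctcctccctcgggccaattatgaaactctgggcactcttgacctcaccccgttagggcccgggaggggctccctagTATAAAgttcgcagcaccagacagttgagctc
AREG: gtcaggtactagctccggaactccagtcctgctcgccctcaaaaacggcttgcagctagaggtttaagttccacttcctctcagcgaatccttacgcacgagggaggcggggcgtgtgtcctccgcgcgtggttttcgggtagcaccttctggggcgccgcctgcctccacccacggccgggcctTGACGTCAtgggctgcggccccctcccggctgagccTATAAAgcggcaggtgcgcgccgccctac
BTC: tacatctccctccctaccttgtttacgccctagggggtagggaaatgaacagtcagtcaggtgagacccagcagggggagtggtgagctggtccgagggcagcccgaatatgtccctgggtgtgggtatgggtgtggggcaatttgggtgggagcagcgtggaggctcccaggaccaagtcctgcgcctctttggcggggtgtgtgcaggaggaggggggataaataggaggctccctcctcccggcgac
The exact letters TATAAA were found at -29 in EPGN, -32 in EREG and -29 in AREG from the start, and not in BTC. Variant forms of the TATA box were not searched for. The cAMP response element was found only in AREG, at -65. Neither an estrogen response element (GGTCANNNTGACC) nor an AP-1 site (TGANTCA) was found in the 4 windows on either strand. Over 35116 RefSeq promoters of the same length, 10.7% held the TATA box, 1.65% the cAMP response element, 0.0399% the estrogen response element and 6.57% the AP-1 site. The GC content of the windows was 38% in EPGN, 58% in EREG, 65.2% in AREG and 62% in BTC. The AREG window matched hg19 at a second place, chr4:75480379-75480628, upstream of AREGB, a near-identical copy annotated on hg19. Of the 50-base words of the AREG gene body 93.0% also occurred in the AREGB bin, and of those of the whole AREG bin 21.8%; the part of these shared reads in the scores was not tested.

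The whole cluster lay in B or at the border before treatment and in A in TamR. The mean score of its 5 gene body bins was -1.98 at T0, -1.64 at T1, -1.43 at T4, -1.88 at T16, -2.23 at T24 and 4.12 in TamR. The TamR mean stood 6.10 above T0, against a range of 0.795 and an SD of 0.307 over the 5 parental libraries. In ranks over all scored bins of each library, this took the cluster from the 42.9 percentile at T0 to the 73.9 percentile in TamR.

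EPGN (ENSG00000182585, chr4:75174187-75182506, plus strand), a ligand of EGFR, had the largest difference of the 9 start bins. Its bin scored -2.78 at T0, -2.36 at T1, -1.91 at T4, -3.01 at T16, -3.36 at T24 and 5.11 in TamR. All 5 parental values lay in B, and the TamR value lay in A, 7.89 above T0. That difference ranked at the 98.8 percentile of all bins.

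EREG (ENSG00000124882, chr4:75230862-75254466, plus strand), a ligand of broad ErbB specificity, lay close to the border in the parental line. Its bin scored -1.05 at T0, -0.640 at T1, -0.368 at T4, -0.0855 at T16, -0.842 at T24 and 3.77 in TamR. The TamR score was 4.83 above T0 and ranked at the 94.5 percentile of differences, the lowest rank of the 4 genes.

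AREG (ENSG00000109321, chr4:75310853-75320722, plus strand) was the only cluster gene whose start bin crossed the border during E2 treatment. Its bin scored -0.358 at T0, 0.323 at T1, 0.520 at T4, 0.174 at T16, -0.492 at T24 and 5.49 in TamR. It lay in A at 1, 4 and 16 h and in B at 0 and 24 h, with a parental range of 1.01, close to the median parental range of all bins of 1.08. The TamR value, 5.85 above T0, was over 5 times that range, at the 96.6 percentile. The neighbouring AREGB bin scored 0.448 at T0 and 3.70 in TamR, which was the smallest difference of the window, 3.26.

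BTC (ENSG00000174808, chr4:75669969-75719733, minus strand) spanned 2 bins, both in B in every parental library. Its start bin scored -3.37 at T0, -3.64 at T1, -3.16 at T4, -3.92 at T16, -4.01 at T24 and 3.62 in TamR, a difference of 6.99 at the 98.1 percentile. The other bin of its gene body scored -2.32 at T0, between -2.54 and -1.87 after E2, and 2.61 in TamR.

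**Figure D1:**
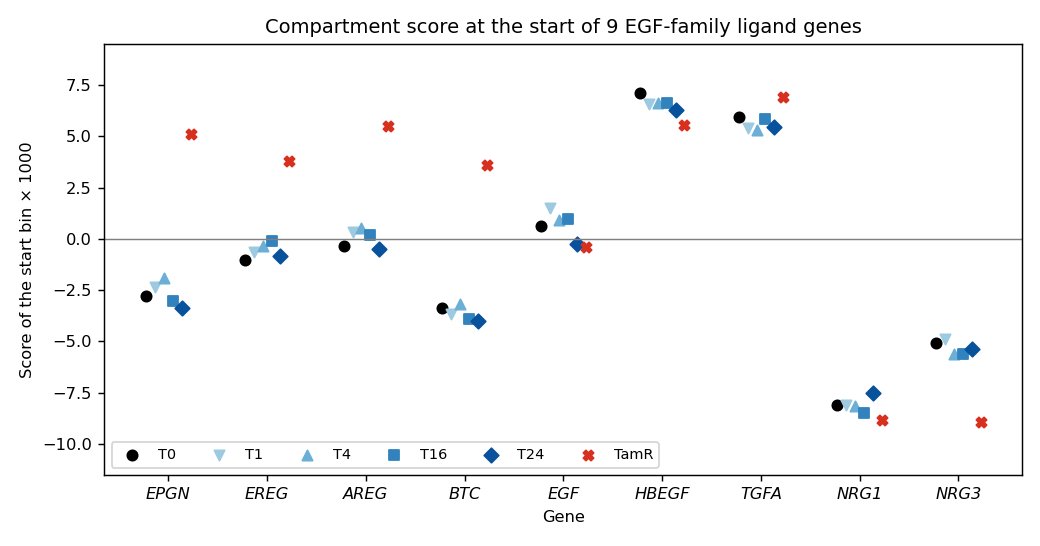
Compartment score (first eigenvector times 1000, 1 library per condition) of the bin holding the start of each of the 9 ligand genes, by library; the 5 parental libraries are T0 to T24 and TamR is the resistant line. EPGN, EREG, AREG and BTC lay between -4.01 and 0.520 in the parental libraries and between 3.62 and 5.49 in TamR, while HBEGF and TGFA stayed above 0 and NRG1 and NRG3 below 0 in all 6.

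The bins around the cluster differed the same way. Over the 17 bins of the cluster with its flanks, the mean score was -3.67 at T0 and 3.40 in TamR, and single bins differed by 3.26 to 10.7. All 16 bins that lay in B at T0 lay in A in TamR, and all 17 scored higher in TamR than in every parental library. Among all bins, 14.3% of those in B at T0 lay in A in TamR, and 35.0% scored higher in TamR than in all 5 parental libraries. Of the 4523 bins elsewhere whose T0 score lay in the range of the cluster's gene bodies (-3.37 to -0.358), 25.9% differed in sign. Of the same bins 39.0% stood above the parental range, with a median difference of -0.262. The gene body bins themselves, 5 of 5, differed in sign and stood above that range. The flanks reached -7.10 at T0, beyond the matched scores, and had no such match.

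The flank upstream of EPGN holds genes of several CXC chemokines, ligands that draw neutrophils and other leukocytes. The bin of CXCL8 (interleukin-8) scored -7.10 at T0 and 3.57 in TamR, the largest difference of the window at the 99.8 percentile of all bins. The bin with CXCL6, PF4V1 and CXCL1 scored -6.32 at T0 and 2.72 in TamR, and the bin with PF4 scored -6.57 and 2.38. These chemokine bins lay deeper in B at T0 than any gene body bin of the ligands beside them.

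At T0 the starts of EPGN, EREG and AREG lay in a B compartment of 1.3 Mb (chr4:74100001-75400000) and that of BTC in a B compartment of 1 Mb (chr4:75500001-76500000), separated by the single A bin of AREGB. At T24 the starts of EPGN, EREG and AREG lay in a B compartment of 3.6 Mb (chr4:71800001-75400000). That length rested on the bin 1.3 Mb before the AREG start bin, at -0.0147 at T24 and 0.263 to 1.60 in the other parental libraries. After 1, 4 and 16 h the AREG start lay in an A compartment of 0.3, 0.2 and 0.1 Mb. Apart from the AREG start bin, the bins of these A compartments scored 0.0433 and 0.00901 at 1 h and 0.433 at 4 h. In TamR all 4 genes lay in 1 unbroken A compartment of 7.3 Mb (chr4:72000001-79300000). Of its 73 bins, 21 lay in A and 52 in B at T0, in 9 alternating compartments, with a mean score of -1.91 at T0 and 3.45 in TamR. The stretch in which every bin scored higher in TamR than in all parental libraries ran for 57 bins (chr4:71700001-77400000) and held 50 protein-coding genes. The 4 ligand genes were thus a small share of the genes in a stretch of 5.7 Mb with the same direction.

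**Figure D2:**
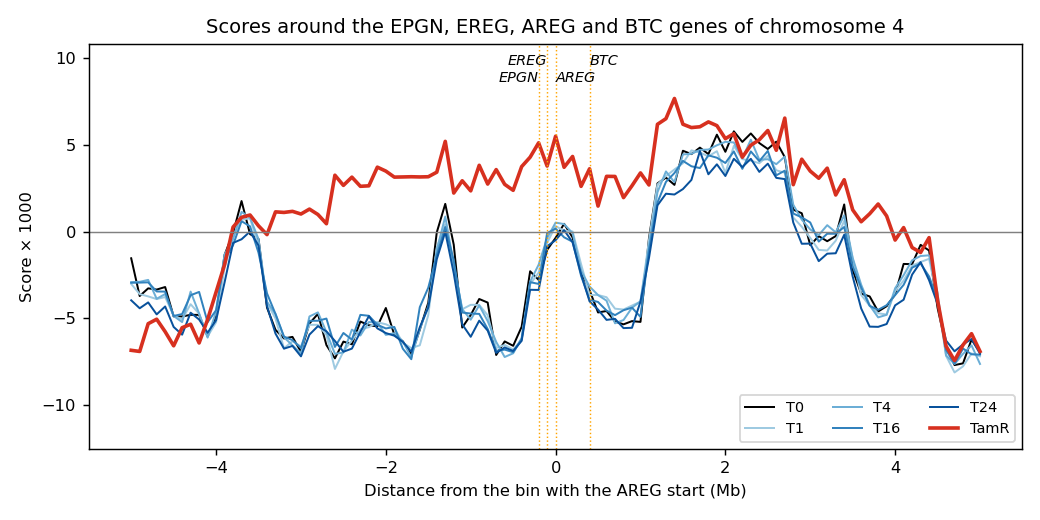
Compartment score times 1000 of each 100 Kb bin around the chromosome 4 cluster, as distance in Mb from the start of AREG, 1 line per library. The TamR line lies in A across the cluster and the chemokine genes to its left, where all 5 parental lines lie at or under 0 over most bins.

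EGF lay in a weak A compartment at T0 and in B in TamR, the opposite direction to the cluster on the same chromosome. EGF (ENSG00000138798, chr4:110834039-110934922, plus strand), the founding ligand of the family, spans 2 bins. Its start bin scored 0.605 at T0, 1.49 at T1, 0.940 at T4, 0.963 at T16, -0.268 at T24 and -0.379 in TamR. The next bin scored 1.92 at T0, 1.02 at T1, 1.45 at T4, 1.15 at T16, 0.241 at T24 and -1.72 in TamR. T24 was the lowest parental library in both bins, and the start bin lay in B at T24 as well as in TamR. The mean over both bins was 1.26 at T0, -0.0131 at T24 and -1.05 in TamR.

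The difference between the TamR and T0 means was -2.31, against a parental range of 1.28 and an SD of 0.546. The start bin alone differed by -0.984, less than its own parental range of 1.76 and at the 35.8 percentile of differences, and the second bin by -3.64, at the 6.44 percentile. In rank, the EGF start bin stayed near the middle of each library, at the 56.9 percentile at T0 and the 50.3 percentile in TamR.

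Of the 11 bins around EGF that lay in A at T0, 7 lay in B in TamR, where 13.6% of all A bins did so, and 10 of the 12 bins scored below all 5 parental libraries, against 43.6% of all bins. The bins that crossed included the first with SEC24B, at 1.82 at T0, -0.105 at T24 and -1.14 in TamR. The next bin, also with SEC24B, scored 3.06 at T0 and 0.433 in TamR and stayed in A. The bins after EGF, with ELOVL6 and ENPEP, crossed up to chr4:111400000, and the last bin of the window already lay in B at T0 (-0.216). MCUB, CASP6, PLA2G12A and CFI lay in the same window. Low A bins crossed often elsewhere: of 1841 bins with a T0 score in the range of the EGF gene body, 38.5% differed in sign between T0 and TamR, with a median difference of -0.520. At T0 EGF lay in an A compartment of 1.1 Mb (chr4:110300001-111400000), and in TamR in a B compartment of 8.8 Mb (chr4:110800001-119600000), 80 of whose 88 bins already lay in B at T0.

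All 12 bins of the EGF window had their lowest parental score at T24, and 5 of them had crossed from A to B at that time, while 31.8% of all bins had their lowest parental score at T24 and 5.17% differed in sign between T0 and T24. Among the bins elsewhere of like T0 score, T24 was lowest in 55.6%, with a median difference from T0 of -0.623. With 1 library at 24 h, an effect of the time and a property of that library cannot be told apart.

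TGFA and HBEGF, both ligands of EGFR, lay in A in all 6 libraries. Few bins elsewhere of like T0 score differed in sign between T0 and TamR. The share was 0.813% for the range of the TGFA gene body and 1.86% for that of the HBEGF window. TGFA (ENSG00000163235, chr2:70674416-70781325, minus strand) had a start bin at 5.93 at T0, 5.41 at T1, 5.30 at T4, 5.86 at T16, 5.46 at T24 and 6.91 in TamR. Its other bin scored 6.28 at T0, between 5.43 and 5.82 after E2, and 8.29 in TamR. The mean over both was 1.50 higher in TamR than at T0, above all parental libraries, whose SD was 0.292. In 11 of the 12 bins of its window, both gene body bins among them, the TamR score lay above all parental scores. Among all bins 35.0% did so. Of 369 bins elsewhere with a T0 score in the range of its gene body, 30.6% did so, with a median difference of -0.656.

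HBEGF (ENSG00000113070, chr5:139712428-139726188, minus strand) lies in 1 bin, which scored 7.12 at T0, 6.57 at T1, 6.65 at T4, 6.62 at T16, 6.28 at T24 and 5.54 in TamR. The difference from T0 was -1.58, and the TamR score lay below all parental scores, whose SD was 0.304, but well inside A. In 10 of the 11 bins of its window the TamR score lay below all 5 parental scores, where 43.6% of all bins did so. Of 5797 bins elsewhere with a T0 score in the range of its window, 46.6% did so, with a median difference of -0.588. The median score of chromosome 5 was -1.22 at T0 and -2.66 in TamR, and with it subtracted from each library the HBEGF difference was -0.135, less than the parental SD. That subtraction removed a shift of -1.45, while the median of the bin by bin differences of chromosome 5 was -0.676, less negative than the -1.58 of HBEGF.

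The neuregulins lay deep in B in all 6 libraries, and no bin of either crossed the border. Few bins elsewhere with a T0 score in the range of their gene bodies differed in sign between T0 and TamR. The share was 3.48% for the range of NRG1 and 5.89% for that of NRG3. NRG1 (ENSG00000157168, chr8:31496738-32713184, plus strand), a long gene of 14 bins, had gene body means of -7.58 at T0, -7.66 at T1, -7.89 at T4, -7.70 at T16, -6.66 at T24 and -7.90 in TamR. The TamR mean differed from T0 by -0.324, less than the parental SD of 0.483, and its direction turned when the libraries were quantile-normalised (0.0333). The T24 mean was the least negative of the 6: all 14 gene body bins had their highest parental score at T24, against 29.4% of all bins. Among 3654 bins elsewhere with a T0 score in the range of the NRG1 gene body, 71.3% had their highest parental score at T24, with a median difference from T0 of 0.604 against 0.920 for NRG1.

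NRG3 (ENSG00000185737, chr10:83634950-84746935, plus strand), a neuregulin known mainly from the nervous system, covers 12 bins. Its gene body means were -6.74 at T0, -6.83 at T1, -7.12 at T4, -6.96 at T16, -6.71 at T24 and -8.95 in TamR. The TamR mean differed from T0 by -2.21, against a parental range of 0.414 and an SD of 0.170. All 22 bins of its window, the 12 of the gene body among them, scored below all 5 parental libraries, against 43.6% of all bins. The window's TamR scores lay between -9.69 and -8.08. Of 5995 bins elsewhere with a T0 score in the range of its gene body, 35.2% scored below the parental range, and their median difference was 0.333, in the other direction. In rank, NRG3 stood at the 14.2 percentile of all bins at T0 and at the 1.73 percentile in TamR.

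**Figure D3:**
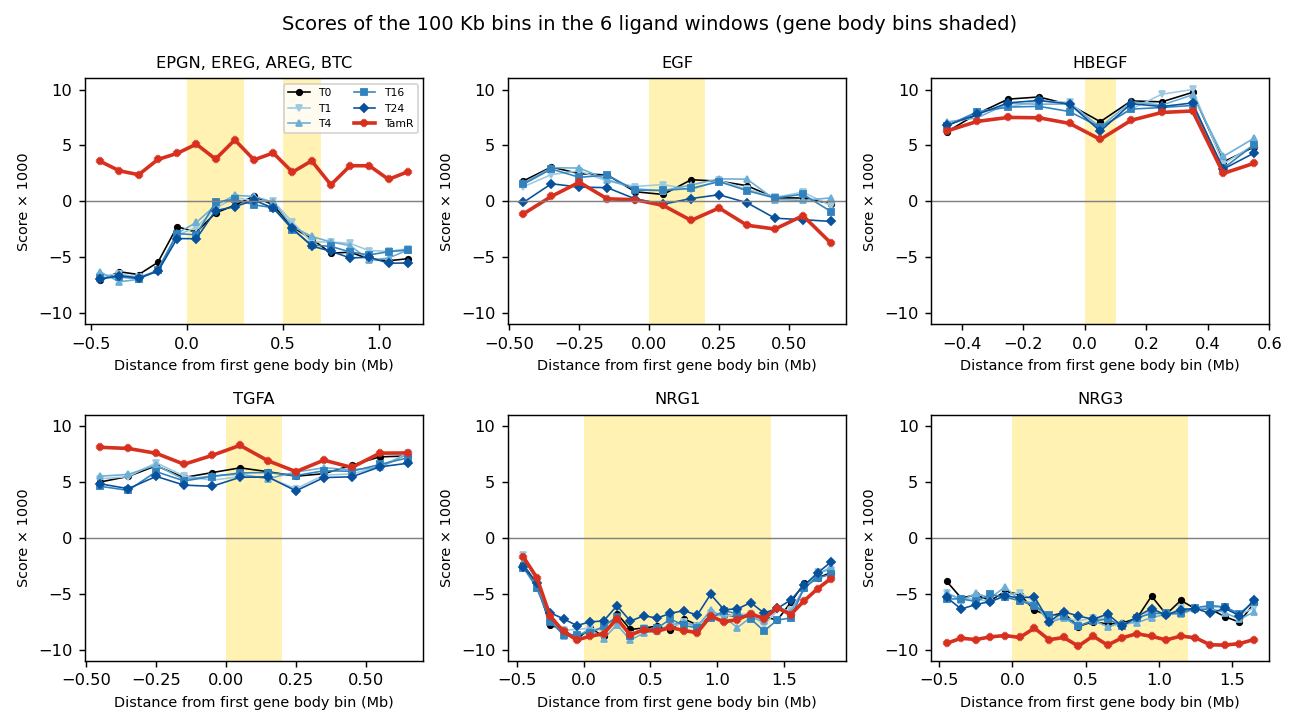
Compartment score times 1000 of each bin of the 6 loci, as distance from the locus in Mb, with 1 panel per locus and 1 line per library; the shaded bins are the gene bodies. TamR lies above all parental lines in the cluster panel, below them across NRG3, and close to them across NRG1.

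Ordered by gene body mean at T0, the loci ran from HBEGF (7.12) and TGFA (6.10) through EGF (1.26) and the cluster (-1.98) to NRG3 (-6.74) and NRG1 (-7.58). In TamR the order was TGFA (7.60), HBEGF (5.54), the cluster (4.12), EGF (-1.05), NRG1 (-7.90) and NRG3 (-8.95), so that 3 pairs of neighbours stood in the other order. Over the 5 parental libraries the ranges of HBEGF and TGFA did not overlap, nor did those of EGF and the cluster, while those of NRG1 and NRG3 did.

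Counted over all 6 loci, 7 of 36 gene body bins (19.4%, Wilson 95% interval 9.75 to 35.0%) differed in sign between T0 and TamR, where 13.9% of all 27898 scored bins did. With the flanks the count was 23 of 98 (23.5%, interval 16.2 to 32.8%). It was made up of 16 bins from B to A, all at the cluster, and 7 from A to B, all at EGF. With the border at each library's median, 5 of 36 gene body bins (13.9%) and 21 of 98 bins (21.4%) differed. The share of all bins at that border was not counted. Neighbouring bins share contacts, so these intervals treat as independent what came from 2 loci; the interval of the gene body share includes the 13.9% of all bins. In 80 of 98 bins the TamR score lay outside the parental range, close to the 78.6% of all bins, with 29 above and 51 below. The median difference between T0 and TamR was -0.699 over the 98 bins and -0.268 over all bins.

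**Figure D4:**
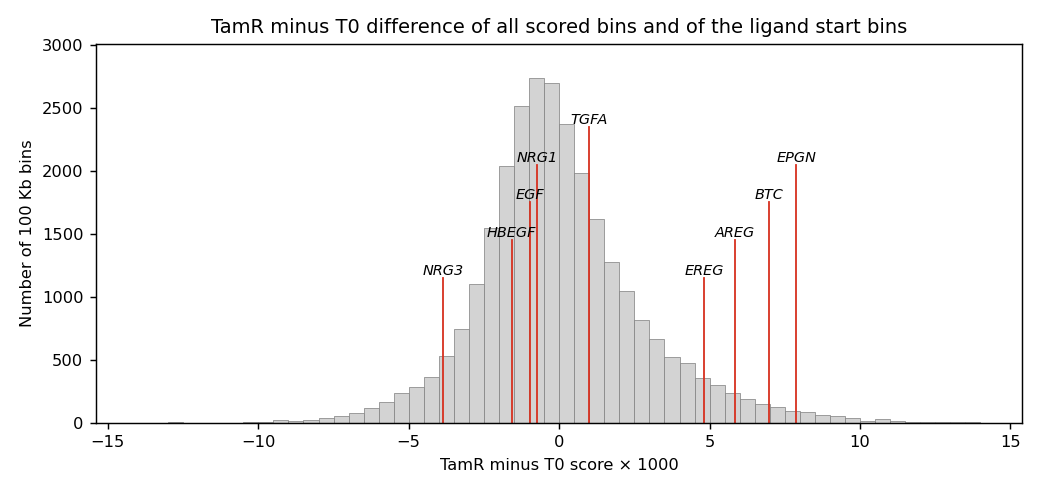
Distribution of the TamR minus T0 difference in score (times 1000) over all 27898 scored bins, with the start bins of the 9 ligand genes marked. The central 95% of bins lies between -5.17 and 6.47; EPGN (7.89) and BTC (6.99) lie beyond it, and the other 7 genes within it.

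Over the E2 time course the 98 bins of the ligand loci, pooled, varied about as much as other bins, while the loci differed from each other. The median range over the 5 parental libraries was 1.07 in the 98 bins and 1.08 in all bins. By window, this median was 1.73 at EGF and 1.28 at NRG1. It was 0.925 at TGFA, 0.898 at the cluster, 0.845 at HBEGF and 0.817 at NRG3. A sign that differed from T0 at any E2 time was found in 9 of 98 bins (9.18%), against 7.12% of all 27924 bins scored in the parental libraries. Of these, 3 lay at the cluster, around AREG and AREGB, and 6 around EGF; without the T24 library the share was 4.08%. It was also 4.08% with the border set at each library's median, and 0% once bins of weak score (nearest 0, the lowest 10% by size in any parental library) were left out. The share of all bins was not counted at these settings, so the lower shares cannot be set against the genome. No bin around TGFA, HBEGF, NRG1 or NRG3 crossed the border at any E2 time.

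The other genes of the ErbB pathway mostly stayed in their compartment. Of 18 genes (the other neuregulins, the receptors, the sheddases and their regulators, adaptors and attenuators), 16 start bins lay in A at T0 and 15 in TamR. The sign differed between T0 and TamR in 3 of 18 (16.7%, interval 5.84 to 39.2%), 1 from B to A and 2 from A to B, where 9.73% of the start bins of protein-coding genes did so. With the border at each library's median the share was 11.1% (2 of 18), and the share of all protein-coding genes at that border was not counted. Among the ligands the sign differed in 5 of 9, of which 4 belong to 1 cluster. The AREG start bin at T0 (-0.358) and the EGF start bin in TamR (-0.379) lay above their library's median (-0.720 and -0.429). At that border, neither gene's start bin differed between T0 and TamR. The median difference was -0.712 for the 18 genes and -0.375 for all protein-coding genes.

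EGFR, the receptor of the cluster's 4 ligands, had a start bin at -1.87 at T0, -0.797 at T1, -0.766 at T4, -0.790 at T16, -0.747 at T24 and 0.373 in TamR. It thus lay in A only in TamR, close to the border. The mean over its gene body was negative in all 6 libraries, at -1.11 at T0, -0.379 at T24 and -0.369 in TamR. ERBB4, the receptor of NRG3 that NRG1, BTC, EREG and HBEGF also bind, scored 0.273 at T0, -0.213 at T1, 0.0691 at T4, -0.119 at T16, -0.945 at T24 and -3.73 in TamR. It lay at the border in the parental line and in B in TamR, where its gene body mean was -4.53. SOS1, which passes the receptor signal on to RAS, scored 3.21 at T0 and -0.335 in TamR at its start, and its gene body mean stayed in A at 0.387.

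ERBB2, the coreceptor without a ligand of its own, scored between 14.9 and 16.2 in the parental libraries and 16.4 in TamR, far inside A. ERBB3, the neuregulin receptor that signals with ERBB2, scored between 11.3 and 11.6 in the parental libraries and 10.7 in TamR. NRG4 had a start bin at 8.66 at T0 and 4.49 in TamR, with both values in A. NRG2, whose start lies in the window of HBEGF, scored 9.15 at T0 and 7.51 in TamR.

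**Figure D5:**
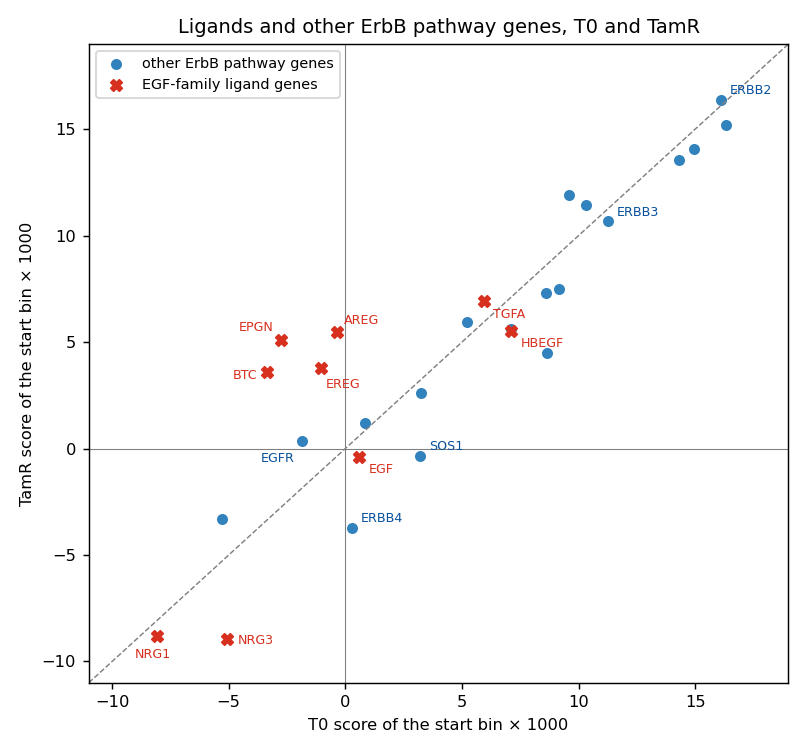
TamR against T0 score (times 1000) of the start bin of each of the 9 ligand genes and 18 other ErbB pathway genes, 1 library per axis, with the borders between A and B drawn at 0. EPGN, EREG, AREG, BTC and EGFR lie in B at T0 and A in TamR; EGF, ERBB4 and SOS1 lie in A at T0 and B in TamR.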

How the data were processed

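Compartment scores of TCC libraries were analysed for 6 T47D conditions with 1 library each. The authors aligned reads to hg19 and deposited compartment scores for bins of 100 Kb (first eigenvector). Per the study's methods, bowtie2 and HiCLib were used for all TCC data, with iterative correction and an eigenvector of contacts between chromosomes. For MCF7, another line of the study, replicates were combined and uniquely mapped reads kept by mapping quality; whether the T47D files were made the same way is not given in the sources used here. Scores were multiplied by 1000, and a bin at exactly 0 was taken as unscored in that library. Read depth per library is not in the score files, so the precision of a score is unknown. Gene positions came from GENCODE (v44lift37), whose GRCh37 chromosome lengths match the bins. Gene body and start bins were averaged or counted with python 3.11.15, numpy 2.4.6, pandas 2.3.3, scipy 1.17.1 and matplotlib 3.10.9, and the sign and scaling steps were tested on simulated data. With 1 library per condition no test was run; values are given beside all bins, and Wilson intervals cover counting only. Members and lists were chosen with earlier results of these data known. Named genes were all members, the receptors and those of 18 listed pathway genes whose sign differed, up to 5 genes in genome order per window with changed bins, and the 3 genes on other chromosomes nearest each locus over the 6 libraries (those nearest HBEGF are not reported here); AREGB, ELOVL6, ENPEP, NRG2 and NRG4 were added after their values were seen. Other scalings, borders, references, bin sizes and flanks were tried.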

Additional observations from a re-analysis of the deposited data

How the results depend on the processing

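Of 80 alternative values, 58 stayed within 1 parental SD (or, for shares, within the interval), 21 moved beyond it and 1 reversed. The cluster's difference stayed positive under every alternative run. With the chromosome median subtracted, TamR minus T0 was 6.92 at the cluster, -1.49 at EGF, -0.135 at HBEGF, 1.99 at TGFA and -2.51 at NRG3. Start bins alone gave -0.984 at EGF, 0.981 at TGFA and -3.85 at NRG3; the whole window gave 7.07 at the cluster and -2.75 at NRG3. Bins of 500 Kb gave -1.65 at EGF. Against the mean of the 5 parental libraries HBEGF gave -1.11 and TGFA 1.93, and against the 4 E2 libraries -0.987 and 2.04. Quantile normalisation gave -1.72 at NRG3 and turned NRG1 to 0.0333; the median of the gene body bins gave -2.0 at NRG3. Bins crossing at any E2 time were 4.08% with the border at each library's median, 0% with weak bins left out and 4.08% without T24. With the sign of the gene body mean, 5.56% of the pathway genes differed. No share of all bins or of all genes was counted at these settings. The causes were not tested. No paired analysis was possible because a single library stood for every condition. Depth is unknown, so no score has an error of its own.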

Other observations

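The protein-coding genes on other chromosomes whose start bins came nearest to the loci other than HBEGF over all 6 libraries (smallest Euclidean distance of the 6 scores times 1000) were as follows. For the EPGN, EREG, AREG and BTC cluster they were FAM216B at 0.680 and BBS9 and NT5C3A, which share a bin, at 0.701. For EGF they were JAK1, a cytokine receptor kinase, at 0.345, TOGARAM1 at 0.594 and MMP1, an interstitial collagenase, at 0.663. TGFA was nearest to CLIC6 at 0.466, SLC25A28 at 0.489 and ADAM20 at 0.599. NRG1 was nearest to SEMA6D, a semaphorin, at 0.396, OR4A47 at 0.521 and KCNIP4 at 0.551, and NRG3 to TAS2R1, a bitter taste receptor, at 0.331, ZNF804B at 0.379 and TOX at 0.487. These are likenesses of 6 numbers among all start bins and carry no test.

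The compartments that held the other loci were also longer in TamR than in any parental library. How often this held for compartments elsewhere in the genome was not counted. HBEGF lay in an A compartment of 11.3 Mb in TamR and of at most 6.7 Mb in the parental libraries. Of the 113 bins in TamR, 102 lay in A at T0. TGFA lay in one of 7.2 Mb, against at most 6.3 Mb, with 57 of 72 bins in A at T0. The B compartment of NRG1 measured 7 Mb, against at most 6.6 Mb in the parental libraries, with 66 of 70 bins in B at T0. That of NRG3 measured 6.1 Mb, against at most 5.9 Mb, with 55 of 61.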
